A study of Mus musculus with 14 samples.

Results

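The glucocorticoid receptor gene Nr3c1, 5 genes that glucocorticoids are known to induce (Zbtb16, Tsc22d3, Fkbp5, Sgk1 and Ddit4) and the glucocorticoid-converting enzymes Hsd11b1 and Hsd11b2 were followed in mouse intestinal stem cells. These 8 genes were taken by symbol from the 55335 genes of each deposited count table, and each symbol had 1 gene identifier in both tables. The study asked how chronic stress bears on the ageing of intestinal stem cells, and its libraries come from cells sorted by flow cytometry for the EGFP that the Lgr5 locus drives. The Chrm3 experiment used Lgr5CreERT2-IRES-GFP; Chrm3flox/flox mice, in which vehicle-injected mice are labelled WT and TAM-injected mice KO, each with NT or with the stress condition ES, and with n = 2 libraries in each of the 4 groups. The injections ran for 3 days before ES began. Chrm3 encodes the M3 muscarinic acetylcholine receptor. Deletion and injection change together, so a KO against WT difference cannot be told apart from one of TAM against vehicle. The ageing experiment used Lgr5CreERT2-IRES-GFP mice aged 2 months (young) or 18 months (old), with n = 3 libraries each. No label states which animal gave which library, and p-values therefore reflect only how far these libraries vary, which may be technical.

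Glucocorticoids are adrenal hormones of the stress response that also have a strong daily rhythm. The bound receptor leaves a chaperone complex in the cytoplasm, enters the nucleus and binds DNA at palindromic response elements, near which genes such as Tsc22d3 and Fkbp5 are induced. The enzyme of Hsd11b1 regenerates active hormone inside the cell and that of Hsd11b2 inactivates it, so the balance of the pair sets how much hormone reaches the receptor. Intestinal epithelium responds to glucocorticoids with sodium absorption and maturation, and can also make them from cholesterol.

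The libraries held 26683563 to 36882310 counts each, and mitochondrially encoded genes took 6.12% to 8.74% of them, most in KO NT replicate 2. Levels are in CPM, counts relative to the TMM-scaled size of the library, and changes are log2 fold changes ± standard error from the quasi-likelihood test of edgeR. A gene is said to have risen or fallen where the Benjamini-Hochberg adjusted p over all tested genes was under 0.05. Chrm3 lay at 10.9 to 12.97 CPM in the WT libraries and at 6.04 to 9.24 CPM in the KO libraries. Its KO against WT difference did not pass without ES (-0.50 ± 0.16, edgeR adjusted p = 0.119) and passed under ES (-0.68 ± 0.17, 0.0363). Gene counts can include exons outside the deleted part, so this is a weak check of the labels. The 10 stem cell markers (Lgr5, Ascl2, Olfm4 and others) summed to between 11268 and 16626 CPM over all 14 libraries. Markers of other cells were also present, including goblet (2539 to 10349 CPM) and Paneth cells (6830 to 11039 CPM), while the endothelial list summed to at most 1.36 CPM. In bulk samples, fewer cells of a type and less RNA per cell cannot be told apart.

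Positions are in GRCm38 (mm10), from GENCODE M21. Zbtb16 lies at 9:48654297-48836222, Tsc22d3 at X:140539528-140600659 and Fkbp5 at 17:28399094-28517527. Sgk1 lies at 10:21882184-21999903, Ddit4 at 10:59949669-59951834, Hsd11b1 at 1:193221634-193264075 and Hsd11b2 at 8:105518755-105523988. None of the 8 shares exon bases with another annotated gene.

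RefSeq promoter windows (GRCm38.p6, the 250 bases before a transcript start) were found for 5 of the 8 genes, with 12 windows in all. Nr3c1, Zbtb16 and Hsd11b2 had none. For 3 targets a window is shown, because the receptor binds DNA directly and because these genes behaved differently below. Sgk1 and Tsc22d3 had several windows, and the one shown is that with the fullest motif match. Capitals mark the receptor's palindrome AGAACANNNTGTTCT or, without one, its half-site AGAACA, and TGTTCT is that half-site read on the other strand. Each is written 5′ to 3′ on the strand of its gene.
Sgk1, chr10:21993640-21993889, + strand: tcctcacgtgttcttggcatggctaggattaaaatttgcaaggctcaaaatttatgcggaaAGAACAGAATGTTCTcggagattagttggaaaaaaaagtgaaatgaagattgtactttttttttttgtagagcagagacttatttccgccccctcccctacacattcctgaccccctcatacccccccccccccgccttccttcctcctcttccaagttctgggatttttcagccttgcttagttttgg
Tsc22d3, chrX:140600660-140600772, - strand: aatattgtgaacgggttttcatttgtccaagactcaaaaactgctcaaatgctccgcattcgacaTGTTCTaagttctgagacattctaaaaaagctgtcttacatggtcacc
Fkbp5, chr17:28486150-28486399, - strand: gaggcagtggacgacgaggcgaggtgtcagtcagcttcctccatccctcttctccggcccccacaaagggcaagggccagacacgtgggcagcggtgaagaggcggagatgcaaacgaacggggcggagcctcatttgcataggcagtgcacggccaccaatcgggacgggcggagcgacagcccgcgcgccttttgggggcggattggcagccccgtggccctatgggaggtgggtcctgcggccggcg

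The Sgk1 window shown holds the full palindrome, as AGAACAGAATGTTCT at position -189 from the transcript start. It lies inside the gene, outside its exons, upstream of a shorter transcript. The other Sgk1 windows hold the half-site at most. Only 3 of 32851 windows of all genes (0.00913%) hold this palindrome on either strand. The looser form GNACANNNTGTNC was found in 127 windows (0.387%), among the members again in Sgk1. The half-site AGAACA, which is part of the palindrome, was found in 5284 windows (16.1%), and the Tsc22d3 window shown holds it at position -185. That Tsc22d3 stretch is the 113 bases of its window that lie outside annotated exons. The other Tsc22d3 windows hold none of the 3 motifs. Of 19 other known glucocorticoid-induced genes with windows, 0 had the palindrome and 2 the half-site, beside 18.2% of all gene symbols for the half-site. The Fkbp5 window holds none of the 3 motifs. A match describes the letters only, and the receptor's known sites in several of these genes lie outside such short windows.

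**Figure D1:**
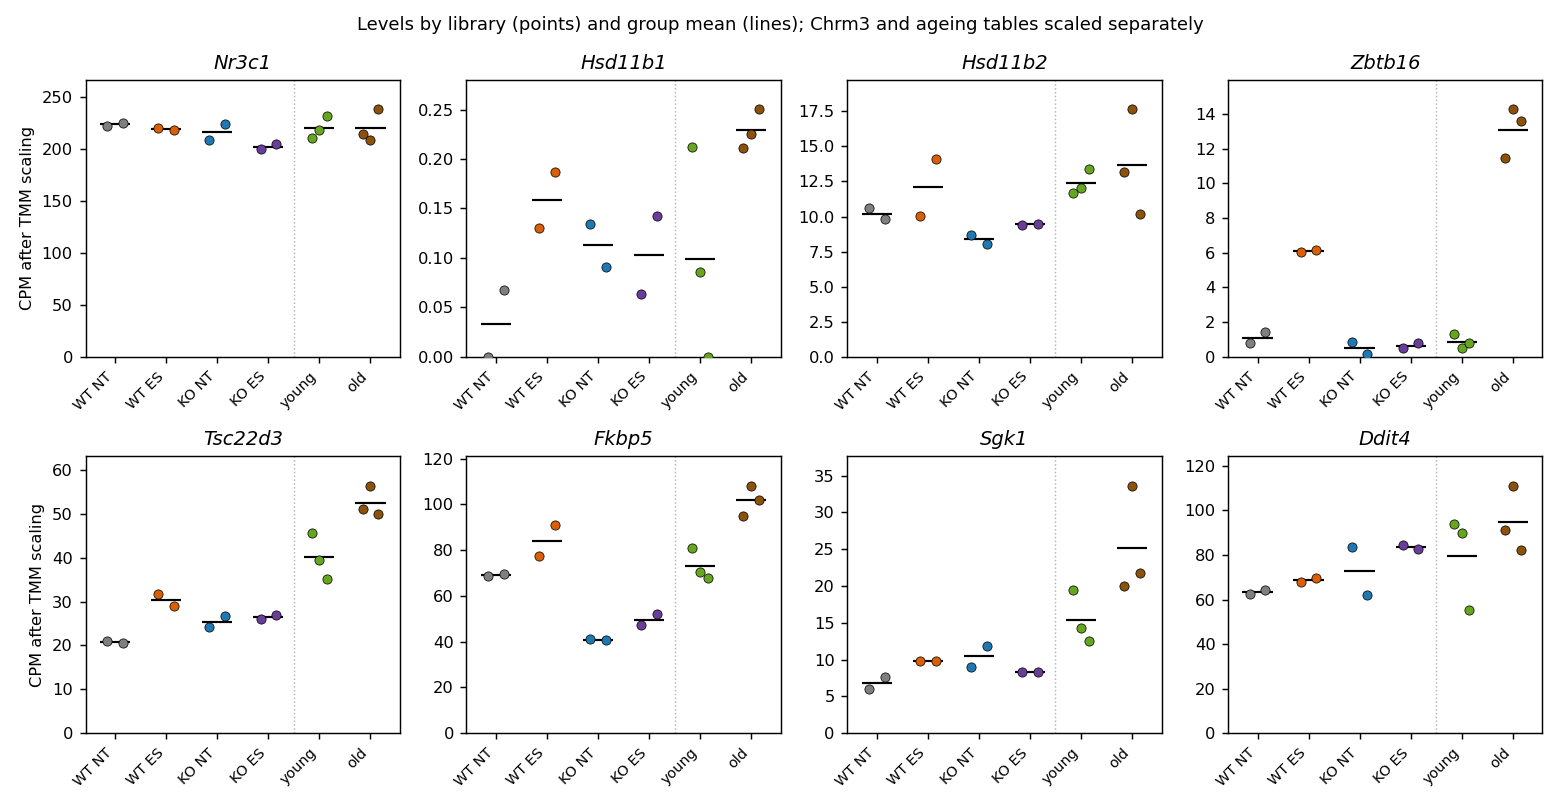
Level of each of the 8 genes (y axis, CPM after TMM scaling, from 0) in every library (points) with group means (lines), for the 4 groups of the Chrm3 experiment and, right of the dotted line, young and old. The receptor gene Nr3c1 stays between 199 and 238 CPM, while Zbtb16 is higher in every WT ES and old library than in any other.

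The receptor gene itself was level across the study. Nr3c1 stood at 222 and 225 CPM in the WT libraries without ES and at 219 and 218 CPM in those with it. The KO libraries had 209 and 223 CPM without ES and 199 and 205 CPM with it. Young libraries had 211, 218 and 231 CPM and old libraries 214, 208 and 238 CPM. The largest of its 5 fitted group differences was -0.11 ± 0.06 in KO against WT under ES (95% interval -0.24 to 0.01, edgeR adjusted p = 0.265). For ES against NT in WT the difference was -0.03 ± 0.06 (95% interval -0.16 to 0.09), and for old against young -0.00 ± 0.06 (95% interval -0.14 to 0.14).

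The enzyme genes were unequal in level. Hsd11b1, the regenerating enzyme, had 0 to 5 counts in the Chrm3 libraries and 0 to 8 counts in the ageing libraries, and the count filter removed it from both tests. Of these, 2 libraries had 0 counts, in WT NT and young, where a count of 0 allows up to 3 counts (counting error only). Hsd11b2, the inactivating enzyme best known from kidney and colon, was readily detected at 8.07 to 14.1 CPM in the Chrm3 experiment and 10.2 to 17.6 CPM with age. It passed no test, and its largest difference was -0.34 ± 0.16 in KO against WT under ES (95% interval -0.70 to 0.01, edgeR adjusted p = 0.226). Its ES libraries were uneven in WT, at 10.05 and 14.1 CPM.

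Per kilobase of exon, the 8 genes kept much the same order in both experiments. In the Chrm3 libraries Ddit4 was highest (median 39.2 CPM per kb), followed by Nr3c1 (28.5), Fkbp5 (6.37), Tsc22d3 (6.06), Hsd11b2 (5.26), Sgk1 (1.77), Zbtb16 (0.157) and Hsd11b1 (0.0260). Ranges over the libraries overlapped between Fkbp5 and Tsc22d3, between Tsc22d3 and Hsd11b2, and between Zbtb16 and Hsd11b1. In the ageing libraries Ddit4 (51.6 CPM per kb) and Nr3c1 (28.1) were again first, while the neighbours from Tsc22d3 (11.02) through Fkbp5 (9.28), Hsd11b2 (6.85) and Sgk1 (4.02) to Zbtb16 (1.21) all overlapped.

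Under ES in WT, Zbtb16 and Tsc22d3 rose, and no member fell. These are 2 of the 7 tested members, against 3.48% of all tested genes. The median change of the 7 was 0.28, and that of all genes -0.00. In the same contrast 8 of 10 stem cell markers fell (sums of 14409 and 14724 CPM in NT, 11268 and 11634 CPM in ES) and all 8 goblet markers rose (4991 and 5106 CPM, 10138 and 10349 CPM). Of other lists, 3 of 7 Paneth, 3 of 8 enteroendocrine and 2 of 10 enterocyte markers rose (medians 0.35, 0.63 and 0.61). Their part in the members' changes was not tested.

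Zbtb16 encodes PLZF, a zinc finger transcription repressor that glucocorticoids induce in many tissues and that also marks innate-like lymphocytes. Its level was 0.785 and 1.41 CPM in WT NT (25 and 42 counts) and 6.05 and 6.14 CPM in WT ES (186 and 164 counts). Both ES libraries stood far above both NT libraries. The change was 2.48 ± 0.36, or 5.58-fold (edgeR adjusted p = 0.00749), the 52nd largest rise among 17364 genes. Without either WT NT library the change was 2.11 or 2.95, and the adjusted p from edgeR was 0.132 or 0.0804. The 12 markers of T cells and innate lymphocytes (Cd3e, Gzma, Cd8a and others) summed to 62.3 and 63.2 CPM in WT NT and 62.3 and 64.0 CPM in WT ES, and 0 of the 11 tested passed (0 with DESeq2, 1 at an unadjusted p under 0.05).

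Tsc22d3 encodes GILZ, a leucine zipper protein that carries part of the anti-inflammatory action of glucocorticoids. It stood at 20.95 and 20.5 CPM in WT NT and at 31.6 and 29.0 CPM in WT ES. The groups did not overlap, and the change was 0.55 ± 0.09, or 1.46-fold (edgeR adjusted p = 0.0124). This call did not hold without WT NT replicate 1 or 2 or WT ES replicate 1 (edgeR adjusted p 0.112 to 0.164), nor without the count filter (0.0501).

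Fkbp5, Sgk1 and Ddit4 had positive differences that did not pass. Fkbp5 encodes FKBP51, a cochaperone that lowers the receptor's hormone affinity and so closes a feedback loop. It stood at 68.7 and 69.7 CPM in WT NT and 77.3 and 91.0 CPM in WT ES, a difference of 0.28 ± 0.08 (edgeR adjusted p = 0.102). Sgk1, a kinase that promotes epithelial sodium uptake, stood at 6.0 and 7.59 CPM in WT NT and at 9.85 and 9.84 CPM in WT ES. Its difference was 0.54 ± 0.17 (95% interval 0.16 to 0.92, edgeR adjusted p = 0.121), close in size to that of Tsc22d3 but with a wider error. Ddit4 encodes REDD1, an inhibitor of the growth kinase mTORC1, and differed by 0.12 ± 0.11 (edgeR adjusted p = 0.654). Fitted on the 2 groups alone, Fkbp5 and Sgk1 passed (edgeR adjusted p = 0.0323 and 0.0462), and Sgk1 also passed without KO NT replicate 1 or 2 (0.0492 and 0.0440).

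In KO libraries no member passed for ES against NT with edgeR, nor with DESeq2, against 0.513% of all tested genes, and 1 member had an unadjusted p under 0.05. In the same contrast 7 of 8 goblet markers (median 0.74) and 3 of 7 Paneth markers (median 0.52) rose. Of 10 enterocyte markers 3 fell (median -0.89), and 0 of 10 stem cell markers passed. The part of these cells was not tested. Zbtb16 was low throughout, at 0.862 and 0.152 CPM in KO NT (32 and 5 counts) and 0.508 and 0.794 CPM in KO ES (16 and 28 counts). The groups overlapped, and the difference of 0.32 ± 0.64 had an interval from -1.10 to 1.74. Tsc22d3 stood at 24.2 and 26.6 CPM in KO NT and 25.97 and 26.98 CPM in KO ES, a difference of 0.06 ± 0.09 (95% interval -0.14 to 0.26). Fkbp5 was the member with the small unadjusted p, and its difference of 0.28 ± 0.09 (edgeR adjusted p = 0.306) has the size seen in WT. Sgk1 had a negative difference, from 9.0 and 11.9 CPM in KO NT to 8.35 and 8.31 CPM in KO ES, by -0.32 ± 0.16 (edgeR adjusted p = 0.652). Ddit4 was uneven in KO NT, at 83.5 and 61.8 CPM, beside 84.2 and 82.9 CPM in KO ES. Without KO NT replicate 1 its difference was 0.43 (edgeR adjusted p = 0.0165), and without KO NT replicate 2 it was -0.0043.

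Whether the ES effect itself differed between KO and WT was tested as the difference of the 2 effects. No member passed with edgeR, nor with DESeq2, against 0.109% of all tested genes, while 3 had an unadjusted p under 0.05. Those were Tsc22d3 at -0.49 ± 0.13 (edgeR adjusted p = 0.177), Sgk1 at -0.86 ± 0.24 (0.199) and Zbtb16 at -2.16 ± 0.78 (0.329), all with a smaller ES effect in KO. Without KO NT replicate 1, Sgk1 passed at -1.05 (edgeR adjusted p = 0.0299). Fkbp5 gave -0.00 ± 0.12 with an interval from -0.27 to 0.27.

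**Figure D2:**
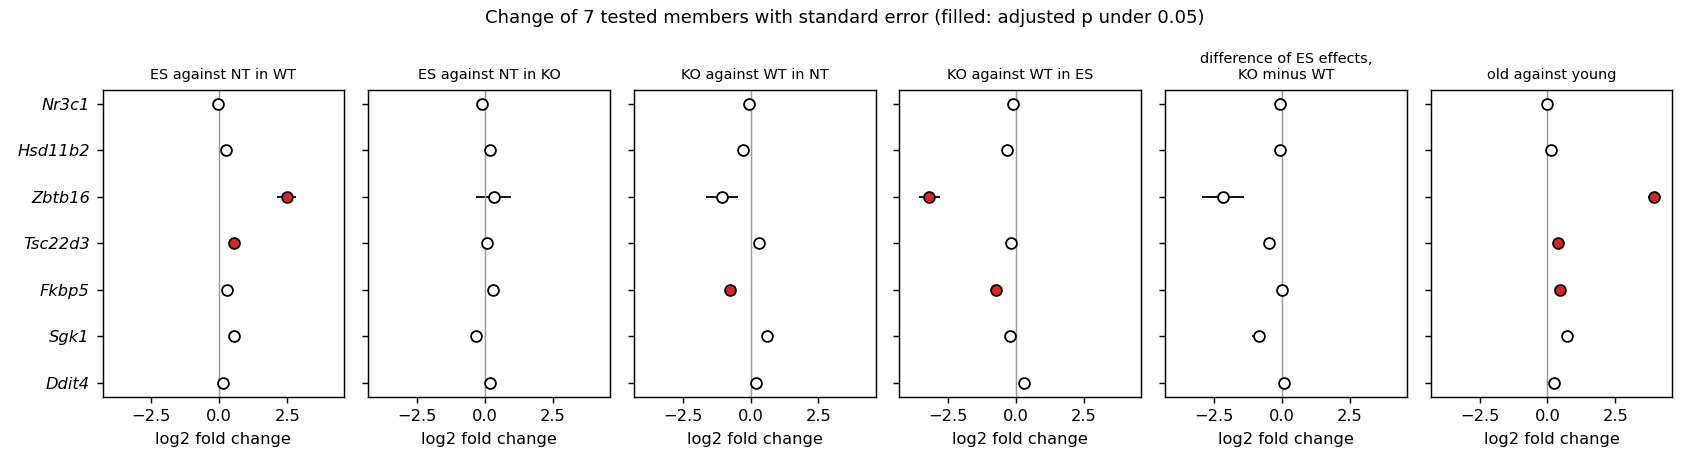
Log2 fold change (x axis, points) with its standard error (bars) for the 7 tested members in the 6 comparisons, filled where the adjusted p was under 0.05. Fkbp5 is lower in KO by the same amount with and without ES (-0.76), and Zbtb16, Tsc22d3 and Fkbp5 rose with age.

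Comparing KO with WT, Fkbp5 was the member that fell without ES, 1 of 7 against 4.47% of all tested genes. It stood at 41.1 and 40.6 CPM in KO NT beside 68.7 and 69.7 CPM in WT NT, a change of -0.76 ± 0.09, or 1.69-fold lower (edgeR adjusted p = 0.000785). Under ES it stood at 47.3 and 51.9 CPM in KO and 77.3 and 91.0 CPM in WT, again -0.76 ± 0.09 (edgeR adjusted p = 0.000631). All 4 KO libraries lay below all 4 WT libraries. Both calls held in every alternative run, with an adjusted p of at most 0.0211 without ES and 0.00869 under ES. Without ES the other targets had differences of either sign that did not pass: Sgk1 0.62 ± 0.17 (edgeR adjusted p = 0.0697), Tsc22d3 0.29 ± 0.09 (0.1097), Ddit4 0.20 ± 0.11 (0.407) and Zbtb16 -1.04 ± 0.58 (0.397). Sgk1 passed without KO NT replicate 1, at 0.81 (edgeR adjusted p = 0.0182), and Ddit4 passed without KO NT replicate 2, at 0.41 (0.0105).

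Cell markers of several types moved in the same direction as Fkbp5. All 8 goblet markers fell in KO, from a sum of 4991 and 5106 CPM in WT NT to 2539 and 2610 CPM in KO NT, and from 10138 and 10349 CPM in WT ES to 4327 and 4365 CPM in KO ES. Tuft markers fell in 4 of 6 tested without ES, from 62.0 and 64.0 CPM to 23.1 and 31.8 CPM, and in 3 of 6 under ES. Under ES, 8 of 10 enterocyte markers (median -1.28) and 6 of 8 enteroendocrine markers (median -0.74) fell as well, and 4 of 10 stem cell markers rose. Without ES, 1 of 10 enterocyte markers rose (median -0.02), while 1 of 8 enteroendocrine and 2 of 10 stem cell markers fell. Of 7 Paneth markers 2 fell in each contrast. Over all tested genes 4.47% passed without ES and 7.56% under ES. The part of these cells in the Fkbp5 and Zbtb16 results was not tested.

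Fkbp5 also lies in a stretch of chromosome 17 that holds many differences between KO and WT. Within 5 Mb of it, 40 of 261 tested genes (15.3%) passed without ES and 45 (17.2%) under ES, beside 11.4% and 13.1% over the whole chromosome and 4.47% and 7.56% over all genes. With a symbol, and with Fkbp5 itself now counted, 38 and 44 genes of this window passed. Of them 28, again with Fkbp5, passed in both, which is 73.7% and 63.6% of the lists. This overlap and its direction were not compared with those over all genes. All 28 went the same way in both, 15 lower and 13 higher in KO. Some were near on or off: Grm4, a glutamate receptor gene, had 407 to 635 counts in the 4 WT libraries and 7 to 24 in the 4 KO libraries, and Cpne5, a copine gene, had 17 to 28 counts in WT and 0 in every KO library. Igfals went the other way, with 0 to 2 counts in WT and 21 to 22 in KO. For old against young the share near Fkbp5 was 18 of 252 (7.14%). This neighbourhood and these genes were looked at after the values were seen, and the KO comparisons without and under ES share no library. The labels do not say whether the WT and KO mice carried the same alleles around Fkbp5, so its KO difference cannot be told apart from a difference between the mice at this locus.

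**Figure D3:**
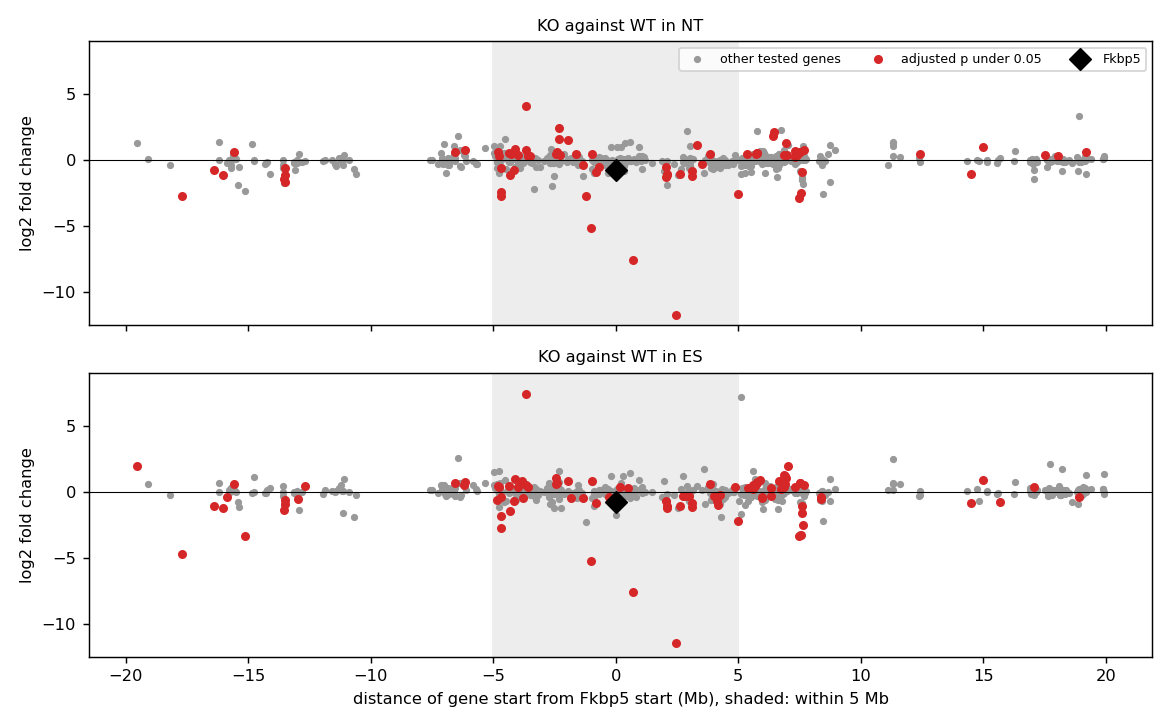
Log2 fold change of KO against WT (y axis) for tested genes by distance of their start from that of Fkbp5 (x axis, Mb), without ES (top) and under ES (bottom), with genes at adjusted p under 0.05 in red and Fkbp5 as a black diamond. Red points lie on both sides of Fkbp5 and above and below 0, and within the shaded 5 Mb 40 of 261 genes passed without ES and 45 under ES.

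Under ES, Zbtb16 fell beside Fkbp5 in KO against WT, so that 2 of 7 members passed, against 7.56% of all tested genes. Zbtb16 stood at 0.508 and 0.794 CPM in KO ES and 6.05 and 6.14 CPM in WT ES, a change of -3.20 ± 0.39, or 9.20-fold lower (edgeR adjusted p = 0.00100). In NT the same contrast was -1.04 ± 0.58 (edgeR adjusted p = 0.397), with overlapping groups. Lymphocyte markers summed to 56.1 and 69.8 CPM in KO ES and 62.3 and 64.0 CPM in WT ES, with 0 of 11 tested passing (0 with DESeq2, 0 at an unadjusted p under 0.05). Tsc22d3 differed by -0.20 ± 0.09 (edgeR adjusted p = 0.219), Sgk1 by -0.24 ± 0.17 (0.433) and Ddit4 by 0.28 ± 0.11 (0.163). Ddit4 passed without KO NT replicate 1 or 2 (edgeR adjusted p = 0.0152 and 0.0170) and on the 2 groups alone (0.0335).

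With age, Zbtb16, Fkbp5 and Tsc22d3 rose and no member fell. That is 3 of 7 against 7.84% of all tested genes. The median change of the 7 was 0.39, and that of all genes -0.00. Zbtb16 went from 1.30, 0.483 and 0.812 CPM in young to 11.5, 14.3 and 13.6 CPM in old, with 17 to 43 counts beside 380 to 505. The lowest old library stood well above the highest young library. The change was 3.93 ± 0.24, or 15.2-fold (edgeR adjusted p = 7.32e-06), the 17th largest rise of 16807 genes. Fkbp5 went from 80.8, 70.6 and 67.8 CPM to 95.01, 108 and 102 CPM, without overlap, a change of 0.48 ± 0.08 or 1.39-fold (edgeR adjusted p = 0.00356). Tsc22d3 went from 45.7, 39.5 and 35.1 CPM to 51.2, 56.4 and 50.0 CPM, also without overlap, by 0.39 ± 0.10 or 1.31-fold (edgeR adjusted p = 0.0301). The Tsc22d3 call did not hold without old replicate 1 or 2 or young replicate 2 or 3 (edgeR adjusted p 0.0876 to 0.118), nor without the count filter (0.130).

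Sgk1 was next, from 19.4, 14.2 and 12.5 CPM in young to 20.04, 33.6 and 21.8 CPM in old. Its groups just failed to overlap, and the difference of 0.72 ± 0.20 missed the threshold (edgeR adjusted p = 0.0559). It passed with DESeq2 (adjusted p = 0.00471). Ddit4 was spread widely within the young group, at 94.0, 89.8 and 55.4 CPM, beside 91.2, 111 and 82.3 CPM in old, a difference of 0.25 ± 0.17 (edgeR adjusted p = 0.448).

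Cell markers also moved with age, lymphocyte markers most often. All 11 tested rose, and the list summed to 30.5 to 47.4 CPM in young and 165 to 197 CPM in old libraries. Among the defining genes, Cd3e spanned 0.768 to 7.97 CPM and Gzma 9.50 to 77.3 CPM over the 6 libraries. Other lists moved too: 5 of 8 enteroendocrine markers rose (median 0.67), 5 of 6 tuft markers (median -1.14) and 4 of 7 Paneth markers (median -0.35) fell. Of 8 goblet markers 3 rose and 2 fell, with sums of 6582 to 7841 CPM in young and 8684 to 9086 CPM in old. Of 10 enterocyte markers 2 rose and 1 fell, and of 10 stem cell markers 1 fell. Over all tested genes 7.84% passed. The part of these cells in the rises of Zbtb16, Fkbp5 and Tsc22d3 was not tested.

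**Figure D4:**
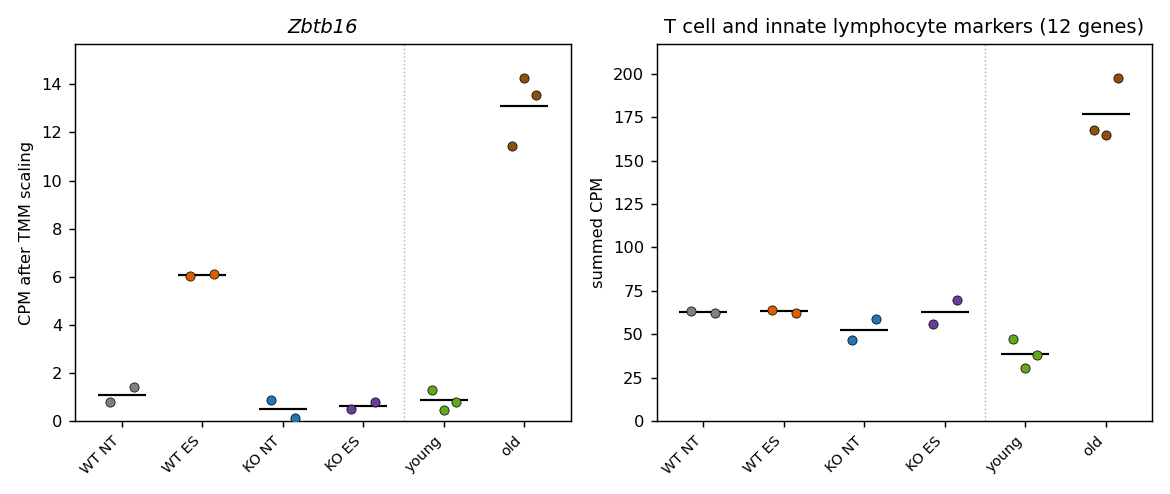
Level of Zbtb16 (left, CPM) and the sum of 12 T cell and innate lymphocyte markers (right, CPM) in every library (points) with group means (lines). Both are high in the old libraries, and in the WT ES libraries Zbtb16 is 6.05 and 6.14 CPM with marker sums of 62.3 and 64.0 CPM.

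Other genes that glucocorticoids are known to induce, a list of 24 with 23 tested (Anxa1 was too low), moved in both directions. Under ES in WT, 4 rose and 2 fell, beside 3.48% of all tested genes, with a median change of 0.19 over the 23 and -0.00 over all genes. Slc9a3, the sodium-proton exchanger of the brush border, went from 14.9 and 15.7 CPM to 33.6 and 34.7 CPM (1.16 ± 0.12, edgeR adjusted p = 0.00154). The clock gene Per1 rose by 0.90 ± 0.10, Scnn1a, a subunit of the epithelial sodium channel, by 0.66 ± 0.12, and the NF-kappaB inhibitor Nfkbia by 0.37 ± 0.09. The metallothioneins Mt1 and Mt2, which bind zinc and copper, fell (-0.75 ± 0.08 and -1.67 ± 0.26). In KO none passed for ES against NT with edgeR, beside 0.513% of all tested genes, while 7 had an unadjusted p under 0.05 and DESeq2 called 1. Per1 and Slc9a3 passed the test of the difference of the ES effects, beside 0.109% of all tested genes. Their differences were -1.24 ± 0.14 (edgeR adjusted p = 0.0115) and -1.13 ± 0.17 (0.0475). Over 13 alternatives these values kept their sign, and Per1 passed in 8 and Slc9a3 in 5. Slc9a3 is also a product of mature enterocytes: the 10 enterocyte markers summed to 1606 and 1616 CPM (NT) and 2159 and 2437 CPM (ES) in WT, and to 1442 and 2093 CPM (NT) and 1341 and 1567 CPM (ES) in KO, with 2 rising in WT under ES and 3 passing the test of the difference. A list of early response genes (Fos, Egr1, Atf3 and others), 22 of them tested, had medians of 0.36 for ES in WT, -0.47 in KO and -0.71 for the difference. Of these 22, 0 passed in WT, 1 fell in KO and 0 passed for the difference, while 9, 13 and 15 had an unadjusted p under 0.05. The part of these 2 lists was not tested.

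Comparing KO with WT, 8 of the 23 rose without ES, beside 4.47% of all tested genes, among them Per1 (0.88 ± 0.10), the phosphatase gene Dusp1 (1.55 ± 0.17) and the mRNA decay factor Zfp36 (1.15 ± 0.17). The highest and lowest KO library differed for Dusp1 (77.8 and 120 CPM) more than those of WT (33.7 and 33.8 CPM). Dusp1 and Zfp36 belong to the early response genes as well, of which 15 of 22 tested rose in the same contrast (again beside 4.47%). Under ES 4 rose and 5 fell, beside 7.56% of all tested genes. Per2 (1.11 ± 0.16), Nfkbia (0.43 ± 0.09), Dusp1 (0.79 ± 0.17) and the phosphatidate phosphatase gene Lpin1 (0.57 ± 0.15) rose. Those that fell were Per1 (-0.36 ± 0.10), Slc9a3 (-1.12 ± 0.12), Scnn1a (-0.64 ± 0.12), the glutamine synthetase gene Glul (-0.52 ± 0.10) and the pyruvate dehydrogenase kinase gene Pdk4 (-2.35 ± 0.47). Per1 and Per2 are clock genes as well. Of 18 tested clock genes, 6 rose in KO without ES (median 0.60), and 5 rose and 2 fell under ES (median 0.18). The shares of all tested genes were again 4.47% and 7.56%. Time of collection is not given, and the part of the clock was not tested.

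With age, 10 of the 23 rose and 2 fell, beside 7.84% of all tested genes, with a median of 0.30 (-0.00 over all genes). Pdk4, which turns cells from glucose to fat as fuel, went from 1.19 to 2.00 CPM in young to 20.4 to 24.9 CPM in old (3.92 ± 0.18, edgeR adjusted p = 1.98e-06). Dusp1 (1.05 ± 0.07), Glul (0.81 ± 0.06), Zfp36 (0.81 ± 0.06) and the lipase inhibitor Angptl4 (2.70 ± 0.20) also rose, while the clock gene Per2 fell (-1.10 ± 0.08). Among 23 tested early response genes 18 rose with age, and among 18 tested clock genes 3 rose and 9 fell, both beside the same 7.84%. Time of collection is not given, and hormone and clock both follow the time of day. Their part in these results was not tested.

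**Figure D5:**
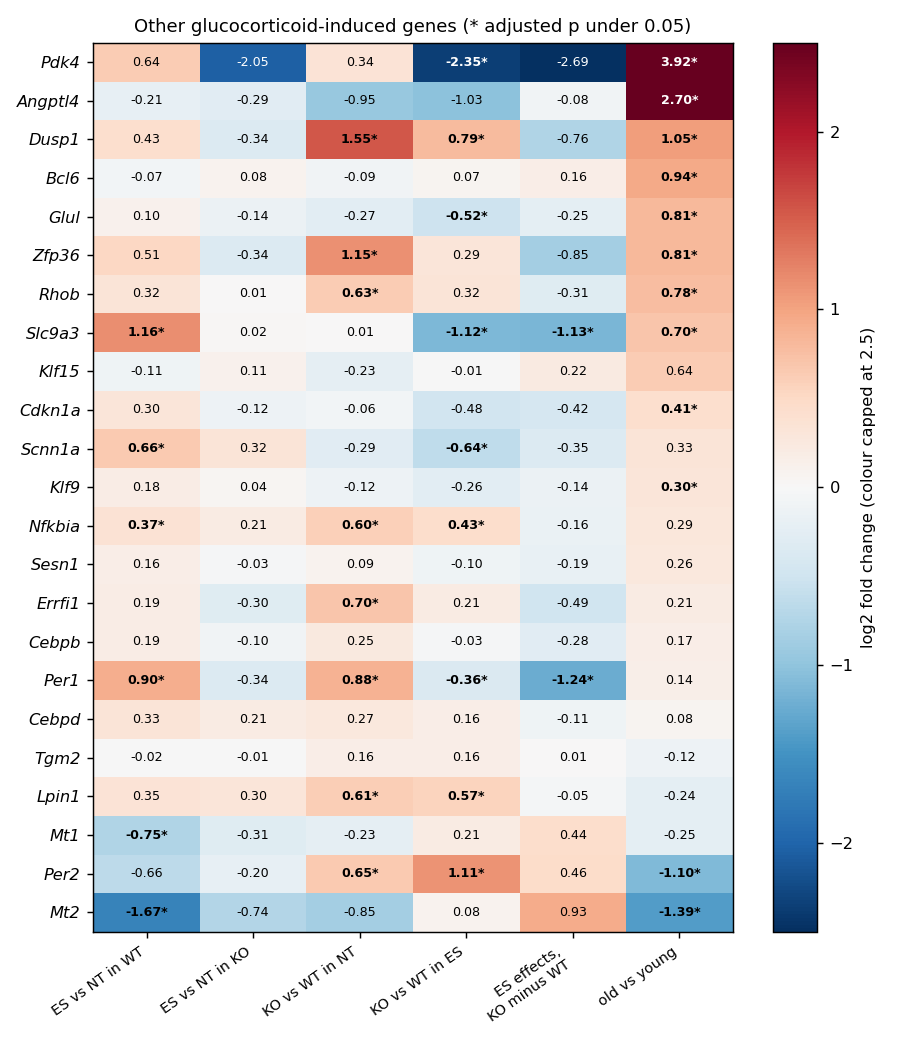
Log2 fold change of 23 other glucocorticoid-induced genes (rows, ordered by the change with age) in the 6 comparisons (columns), printed in each cell, with colour from blue (lower) to red (higher) and an asterisk at adjusted p under 0.05. The age column has 10 rises and 2 falls, and the column of ES in KO has none.

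The machinery around the receptor was covered by lists of chaperones and coregulators. Of 14 chaperones of the receptor complex none passed for ES in WT (4 at an unadjusted p under 0.05, 1 with DESeq2), beside 3.48% of all tested genes. The heat shock gene Dnajb1 rose in KO NT (0.66 ± 0.07) and with age (0.44 ± 0.08), Hspa4 was higher in KO under ES (0.30 ± 0.07), and Dnaja1 rose with age (0.18 ± 0.05). For KO against WT this is 1 of 14 without ES and 1 of 14 under ES, beside 4.47% and 7.56% of all tested genes. With age it is 2 of 14 beside 7.84%. Of 13 coregulators, with age alone 1 rose (Crebbp, 0.27 ± 0.07) and 1 fell (Carm1, -0.25 ± 0.06), beside 7.84% of all tested genes. Nr3c2, the mineralocorticoid receptor, which binds the same hormones, rose under ES in WT from 20.1 and 20.9 CPM to 28.3 CPM in both libraries (0.47 ± 0.08, edgeR adjusted p = 0.0168). It was 19.5 and 19.8 CPM in KO ES, lower than in WT ES by a change of -0.53 ± 0.08 (edgeR adjusted p = 0.00412). The difference of its ES effects did not pass (-0.52).

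Among genes of local glucocorticoid synthesis, 8 of 15 were tested in the Chrm3 experiment. None passed for ES in WT, beside 3.48% of all tested genes (2 at an unadjusted p under 0.05, 0 with DESeq2). The last-step enzyme gene Cyp11b1 was too low to test, as was Cyp11a1 in the ageing experiment. Nr5a2, the nuclear receptor LRH-1 that drives this synthesis in the gut, rose with age (0.46 ± 0.06), as did the electron donor Fdxr (0.46 ± 0.10). These are 2 of 7 tested with age, beside 7.84% of all tested genes. In the list of steroid clearance and export, the drug exporter Abcb1a rose with age (0.39 ± 0.07), and the steroid hydroxylase genes Cyp3a13 (-1.09 ± 0.23) and Cyp3a25 (-1.46 ± 0.31) fell in KO against WT under ES. Cyp3a11 of the same family went the other way without ES, higher in KO (1.74 ± 0.34), and fell with ES in KO (-2.17 ± 0.36). For KO against WT this is 1 of 8 tested without ES and 2 of 8 under ES, beside 4.47% and 7.56% of all tested genes. For ES in KO it is 1 of 8 beside 0.513%, and with age 1 of 7 beside 7.84%. Among 11 paralogs and partners of the members, Ndrg1, whose protein is a substrate of the Sgk1 kinase, fell in KO without ES (-0.63 ± 0.12) and under ES (-0.83 ± 0.12). Tsc22d4 also fell in KO under ES (-0.25 ± 0.06), and Sgk3 fell with age (-0.69 ± 0.17). In this list that is 1 of 11 without ES, 2 of 11 under ES and 1 of 10 tested with age. The shares of all tested genes were 4.47%, 7.56% and 7.84%.

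Over the 8 Chrm3 libraries, the genes most like each of 4 members were sought among 11952 genes by Pearson r of log2 CPM, as a description with no test. Predicted genes (symbols with Gm or Rik) and clone names (AC or AL) had been left out of these 11952. Libraries of a group share their condition, so high values are common. Zbtb16 was most like Arid1b (r = 0.977), Akap13 (0.972) and Tep1 (0.969). Tsc22d3 was most like Ube2l6 (r = 0.992), the brush border enzyme gene Mgam (0.984) and Apol7a (0.980). Fkbp5 was most like Crybg2 (r = 0.996), Kctd12 (0.986) and Pllp (0.985), and Nr3c1 most like Mus81 (r = 0.9747), Gpd1 (0.964) and Tmem98 (0.957). No member was among the nearest 3 of these 4.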

How the data were processed

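Strand-specific TruSeq libraries of polyadenylated RNA were made from 1 µg of Trizol-extracted RNA per the labels' protocols. The authors deposited raw counts per Ensembl gene, with no normalization, in 1 table for the 8 Chrm3 libraries and another for the 6 ageing libraries. Columns named Ctrl were read as NT. The submitters' processing notes name mm10 and FastQC 0.11.2; no aligner or counting tool is given in the sources used here.

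The fits, 1 per table, used edgeR 4.0.16 in R 4.3.3 (filterByExpr, TMM, estimateDisp, glmQLFit in its newer form, 1 mean per group). The 8 Chrm3 libraries shared 1 estimate of the spread. The tests covered 17364 and 16807 genes, with Benjamini-Hochberg adjustment over all of them. A standard error is the change divided by the square root of its F. The fit was tested on simulated data. Alternatives were DESeq2 1.42.0, RLE scaling, no count filter, 2 groups alone, a replicate block, each library left out and, added after seeing the data, the older quasi-likelihood form. The members and lists were chosen with earlier results of these data known. All 8 members are named. Of other lists, genes are named from those that passed, but not all of them. The planned limit, at most 6 per list and comparison by p, was not kept throughout. For likeness, the 3 highest r among genes with a mean of at least 1 CPM are named, with predicted genes and clone names left out.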

Additional observations from a re-analysis of the deposited data

Results flagged for a closer look

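Per1 and Slc9a3, both on the list of other glucocorticoid-induced genes, had an ES effect that differed between KO and WT by a test of that difference. The ES effect in KO minus that in WT was -1.24 for Per1 (edgeR adjusted p = 0.0115) and -1.13 for Slc9a3 (edgeR adjusted p = 0.0475). Over 13 alternatives the value ranged from -1.32 to -1.17 for Per1, which passed in 8, and from -1.32 to -0.95 for Slc9a3, which passed in 5. Without the count filter neither passed (edgeR adjusted p = 0.139 and 0.261). Without WT NT replicate 1 neither passed (0.120 and 0.313), nor without WT NT replicate 2 (0.168 and 0.363), KO ES replicate 1 (0.0553 and 0.161) or KO ES replicate 2 (0.0593 and 0.187). Slc9a3 also missed the threshold without WT ES replicate 1 (0.103) or 2 (0.131) and with the older quasi-likelihood form (0.0561).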

How the results depend on the processing

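With 2 libraries a group, the counts of calls depend strongly on the settings. For ES against NT in WT, 605 genes passed, beside 921 with DESeq2, 114 with no count filter, 1875 when fitting only the 2 groups compared, 970 with the replicate block, and 23 to 1209 with a library left out; 2 members passed, beside 1 with no count filter, 4 with the 2 groups alone, and 0 to 3 with a library left out. For ES against NT in KO, 89 genes passed, beside 201 (DESeq2), 8 (no count filter), 24 (2 groups alone), 206 (replicate block) and 11 to 278 (a library left out), and 0 members, beside 0 to 1. For KO against WT in NT, 776 genes passed, beside 317 with no count filter and 145 to 848 with a library left out; 1 member passed, beside 2 with the replicate block and 1 to 2 with a library left out. For KO against WT in ES, 1312 genes passed, beside 593 with no count filter and 375 to 1936 with a library left out. For the difference of the ES effects, 19 genes passed, beside 177 (DESeq2), 0 (no count filter), 11 (older form), 104 (replicate block) and 0 to 363 (a library left out), and 0 members, beside 0 to 1. For old against young, 1318 genes passed, beside 666 with no count filter, 2019 with the replicate block and 636 to 1485 with a library left out. The cause was not tested.

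Of 560 member values under alternatives, 526 kept their side of the threshold, 16 newly passed, 11 no longer passed and 7 changed sign, each with a library left out. A change of sign was counted only where either run passed or the value moved by more than its main standard error. Smaller changes of sign can be among the 526. Over left-out libraries, Hsd11b2 ranged from -0.022 to 0.46 for ES in WT, from -0.29 to 0.19 for the difference and from -0.091 to 0.32 with age. Zbtb16 ranged from -0.39 to 2.09 for ES in KO. Ddit4 ranged from -0.0043 to 0.43 for ES in KO, from -0.035 to 0.41 for KO against WT in NT, and from -0.14 to 0.32 for the difference. Where a group kept 1 library, it was assumed to vary like the others. In their deviations from the group mean, same-numbered libraries correlated at -0.01 to 0.37 in the Chrm3 experiment and -0.09 to 0.34 with age. With 2 libraries a group, different-numbered pairs must give the same size with the opposite sign. With age, different-numbered pairs ranged from -0.30 to 0.13. These values cannot decide whether the numbers pair the libraries. With the block, Sgk1 passed for KO against WT in NT (0.61) and for age (0.71), and no other member call changed.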
